A study of Mus musculus with 12 samples.

Results

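The ErbB receptors, their ligands and the feedback inhibitor Errfi1 were followed in H9c2 cells that were treated with doxorubicin (DOX), alone or together with a cardioprotective agent. The set held 9 genes of the 54345 genes in the expression table, chosen by gene name: the receptors Egfr, Erbb2 and Erbb3, the ligands Nrg1, Hbegf, Areg, Ereg and Tgfa, and Errfi1. Poly(A) RNA was sequenced from 12 libraries of H9c2(2-1) cells, 3 in each of 4 groups, all after 6 h of treatment and all of the WT genotype. The Unt group was untreated, the DOX group received DOX, an anthracycline chemotherapy drug, the D_DXZ group received DOX and dexrazoxane (DXZ), a drug used clinically against anthracycline cardiotoxicity, and the D_MgHCF group received DOX and nanocatalysts of magnesium hexacyanoferrate (MgHCF NCs). The 12 libraries hold no group that received DXZ or MgHCF NCs without DOX, and the doses in the sequenced cells are not given in the sources used here. All groups come from 1 cell line, and the labels do not say whether the replicates were separate cultures, so that p-values measure the spread between these samples, which may be technical.

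ErbB receptors are tyrosine kinases of the cell surface that act in pairs. Egfr binds Areg, Ereg, Tgfa and Hbegf, and Erbb3 binds Nrg1, while Erbb2 binds no known ligand of its own and serves as the preferred partner of the other receptors. Erbb3 has little kinase activity and recruits phosphatidylinositol 3-kinase when it is paired. The ligands are made as membrane proteins and are released by proteases of the ADAM family, and Errfi1 (also called Mig6) binds the active receptor kinase and blocks it. In the heart, neuregulin from endothelial cells acts on Erbb2 and Erbb4 of heart muscle cells, and antibodies against ERBB2 are known to add to the cardiotoxicity of anthracyclines.

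To show what lies at the start of the members, RefSeq promoter sequences (GRCm38.p6) were used for 5 of the 9 members. For these 5, the 250 bases before each annotated start were taken. Erbb3, Nrg1, Hbegf and Ereg were not searched, so that what lies at their starts was not tested. Each window was searched on both strands for the cAMP response element TGACGTCA and for the TATA box TATAAA. The AP-1 site was searched as the letters TGACTCA. The EGR site was searched as the letters GCGGGGGCG. Of the 5 members searched, Areg and Errfi1, a ligand and the feedback inhibitor, were the ones with a match. Both had higher levels in D_MgHCF than in DOX, and so did Erbb2, which had no match. Their promoters are printed here because they share a motif that only 1.55% of 32851 promoters of this length hold, with the matches in capitals. The Areg window is chr5:91139349-91139598 and the Errfi1 window, of the second of its starts, is chr4:150854820-150855069, both on the plus strand.
Areg: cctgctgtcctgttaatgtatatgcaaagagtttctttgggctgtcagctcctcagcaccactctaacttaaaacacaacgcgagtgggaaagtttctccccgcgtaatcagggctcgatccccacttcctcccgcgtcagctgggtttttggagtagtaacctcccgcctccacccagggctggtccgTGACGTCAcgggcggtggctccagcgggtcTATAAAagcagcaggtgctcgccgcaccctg
Errfi1: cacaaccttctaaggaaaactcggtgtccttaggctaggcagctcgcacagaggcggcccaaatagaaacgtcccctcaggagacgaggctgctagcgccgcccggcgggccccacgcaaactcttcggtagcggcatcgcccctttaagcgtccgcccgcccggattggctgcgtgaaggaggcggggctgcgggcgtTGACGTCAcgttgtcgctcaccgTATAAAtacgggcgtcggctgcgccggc
The letters TGACGTCA begin 61 bases before the start of Areg and 51 bases before that of Errfi1. TATAAA, which 12.4% of all promoters hold, begins 31 and 28 bases before the start. The first start of Errfi1 (window chr4:150853546-150853795) and the windows of Egfr, Erbb2 and Tgfa had no match to any of the motifs, and neither the AP-1 letters (4.46% of all promoters) nor the EGR letters (2.57%) were found in any of the windows of the 5 members. A match is a description of these letters and not a bound site. The windows are mouse sequence, whereas the study's text calls the cells rat cardiomyoblasts. Whether the promoters of the cells hold the same letters was not tested.

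All coordinates are those of GRCm38 as deposited. Egfr (ENSMUSG00000020122) lies on chromosome 11 at 16752203 to 16918158 and Erbb2 (ENSMUSG00000062312) on the same chromosome at 98412470 to 98437716, both on the plus strand, and Erbb3 (ENSMUSG00000018166) lies on chromosome 10 at 128567523 to 128589652 on the minus strand. Nrg1 (ENSMUSG00000062991, chromosome 8, 31814551 to 32884029) and Hbegf (ENSMUSG00000024486, chromosome 18, 36504929 to 36515805) are on the minus strand. Tgfa (ENSMUSG00000029999, chromosome 6, 86195223 to 86275719) and Errfi1 (ENSMUSG00000028967, chromosome 4, 150853919 to 150868892) are on the plus strand. Ereg (ENSMUSG00000029377, 91074622 to 91093646) and Areg (ENSMUSG00000029378, 91139599 to 91148432) are close to each other on the plus strand of chromosome 5. Areg was found by its identifier, because the table lists this identifier under the name Mcub and 0 rows carry the name Areg. The other 8 members were found by name.

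The levels are FPKM values deposited by the authors, that is fragments per kilobase of gene, with a median-ratio scaling between libraries. The libraries held 16626514 to 19365119 reads on genes. Of the libraries, replicate 3 of D_MgHCF stood apart from the others of its group, with a Pearson correlation of log2(FPKM + 1) of 0.957 with replicate 1 and 0.974 with replicate 2, where the pairs within Unt, DOX and D_DXZ reached at least 0.991. Replicates 1 and 2 of D_MgHCF correlated at 0.988, which is also below those pairs. The share of reads on mitochondrial genes lay between 1.19% and 1.41% for Unt, 2.73% and 2.89% for DOX, 2.73% and 3.27% for D_DXZ and 1.76% and 3.16% for D_MgHCF, and its part in the results was not tested. The labelled cell type is a myoblast, but of the 9 myoblast and skeletal muscle markers only Des reached a mean FPKM of 1 in any group, and Myod1, Myog, Myf5 and Pax7 were at or near 0 (summed level of the list 0.936 to 3.01). Of 7 heart muscle markers only Gata4 reached this level, and the summed level of the list lay between 9.66 and 11 for Unt, 2.21 and 5.02 for DOX, 2.46 and 3.66 for D_DXZ and 14.7 and 25.9 for D_MgHCF. Of 5 fibroblast markers, Col1a1 and Col1a2 reached it, with a summed level between 45.1 and 51.1 for Unt, 97.4 and 122 for DOX, 76.7 and 103 for D_DXZ and 22 and 39.6 for D_MgHCF. Epithelial and endothelial markers stayed below a mean of 1, but their summed levels were higher in D_MgHCF, at 0.425 to 1.63 for epithelium (at most 0.233 in the other groups) and 0.237 to 0.989 for endothelium (at most 0.200). The D_MgHCF libraries also had reads on more genes, 23368 to 25456 compared with 18530 to 20660 in the other groups. Of 4 blood and macrophage markers only Cd68 reached a mean FPKM of 1 (summed level between 0.888 and 1.12 for Unt, 2.89 and 3.60 for DOX, 3.82 and 4.37 for D_DXZ and 2.0 and 4.98 for D_MgHCF). The part of these lists and of the number of genes with reads in the results was not tested. The study's text calls the cells rat cardiomyoblasts, whereas the labels give the mouse as organism and the table uses mouse identifiers on GRCm38, so that a level of a gene also depends on how its reads were assigned to a mouse gene.

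Levels were compared with limma on log2(FPKM + 1), with p-values adjusted by Benjamini-Hochberg over the 25044 genes that had reads in 3 or more libraries, and a gene was called at an adjusted p under 0.05. Of the 9 members, 8 were tested, and Ereg did not pass the filter. In DOX, 4 of the 8 members were lower than in Unt and 0 were higher, where 19.9% of all genes tested were called lower and 18.6% higher. Among genes with a mean FPKM of at least 1 these shares were 33.3% and 36.7%, which is the nearer background, since 7 of the 8 members had such a mean over the 12 libraries. D_MgHCF had 6 of the 8 members higher than DOX and 0 lower, where 31.4% of all genes were called higher and 20.1% lower (33.5% and 40.1% among genes with a mean FPKM of at least 1). D_DXZ against DOX had 0 of the 8 members called by limma, 0 at an unadjusted p under 0.05, and 0 of all genes called (0%, with 9.54% at an unadjusted p under 0.05). The median log2 fold change of the members was -0.79 in DOX against Unt, 1.06 in D_MgHCF against DOX and 0.11 in D_DXZ against DOX, where the medians of all genes tested were 0, 0.07 and -0.0047. Among genes with a mean FPKM of at least 1 the medians in these comparisons were 0.05, -0.09 and -0.08. The first and the second of these comparisons share the DOX libraries, so that their opposite directions are not independent. Because whole cultures were sequenced, fewer cells that express a gene and less RNA per cell cannot be told apart.

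Against Unt, D_DXZ had 5 members lower and 0 higher (18.0% of all genes lower, 15.9% higher, and 31.5% and 31.9% at a mean FPKM of at least 1), with a median of -0.73 for the members and 0 for all genes. D_MgHCF had 3 higher and 2 lower than Unt (24.3% and 15.7% of all genes, and 22.5% and 29.0% at such a mean), with medians of -0.39 and 0.05. Against D_DXZ, D_MgHCF had 5 higher and 0 lower (29.4% and 19.0% of all genes, and 30.4% and 38.0% at such a mean), with medians of 0.92 and 0.06. Among genes with a mean FPKM of at least 1 the medians were -0.02 in D_DXZ and -0.08 in D_MgHCF against Unt. In D_MgHCF against D_DXZ the median of such genes was -0.11. The members higher in D_MgHCF than in Unt were Erbb3, Hbegf and Areg, and the members lower were Egfr and Nrg1.

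**Figure D1:**
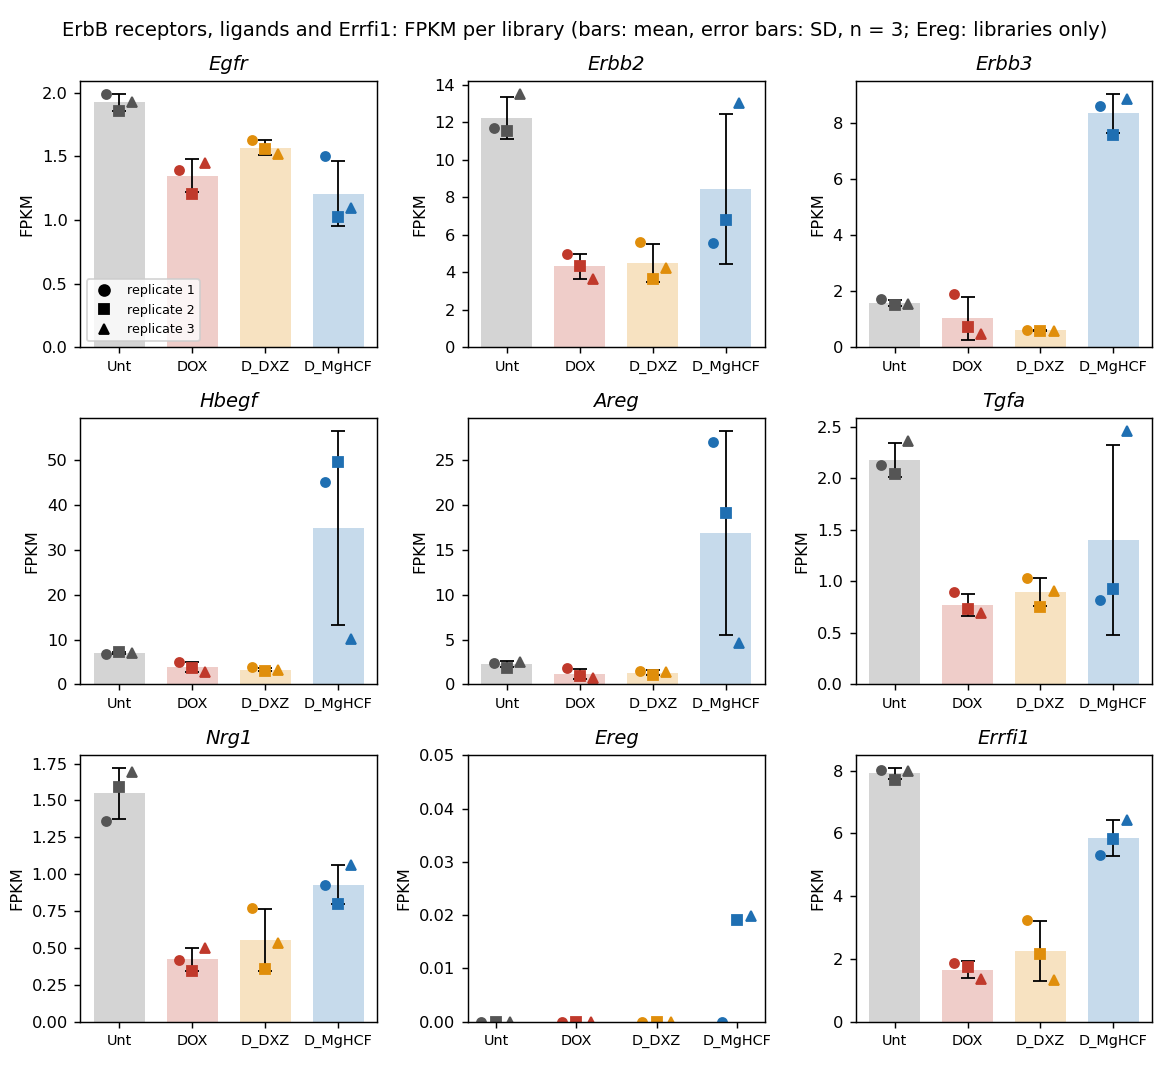
FPKM of the 9 members in each of the 12 libraries (points, shaped by replicate), with the mean of each group as a bar and the SD as error bar (n = 3), and with points alone for Ereg. Erbb3, Hbegf and Areg were highest in the D_MgHCF libraries, while Errfi1, Nrg1 and Tgfa were lower in DOX and D_DXZ than in Unt.

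Egfr, the receptor of Areg, Tgfa and Hbegf, varied least of the receptors over the 12 libraries, with an SD of log2(FPKM + 1) of 0.172. Its FPKM was 1.99, 1.85 and 1.93 in replicates 1 to 3 of Unt, 1.39, 1.20 and 1.45 in DOX, 1.63, 1.56 and 1.52 in D_DXZ and 1.5, 1.03 and 1.09 in D_MgHCF. The 3 Unt libraries lay above all 9 others. Egfr had a log2 fold change of -0.32 ± 0.12 (SE) in DOX against Unt, with a limma adjusted p of 0.0711 (lower and called under 9 of 22 alternative settings, but turned to a log2 fold change of 0.042 with quantile normalization, adjusted p = 0.853), and -0.19 in D_DXZ against Unt (adjusted p = 0.327). In D_MgHCF against Unt the log2 fold change was -0.41 (adjusted p = 0.0247), a call lost without any single Unt library, without replicate 2 of D_MgHCF and with only these groups in the fit (adjusted p = 0.0636 to 0.111). Between the means of D_MgHCF and Unt, Egfr was 1.59-fold lower, a larger ratio than the 1.45-fold of Erbb2. For Egfr, D_MgHCF and DOX overlapped, with a log2 difference of -0.09 (95% confidence interval -0.37 to 0.18, adjusted p = 0.554). When FPKM were rescaled to an equal total (TPM), Egfr in D_MgHCF was instead called higher than in DOX (log2 difference 0.59, adjusted p = 0.00416), where the median of genes with a mean FPKM of at least 1 moved to 0.87. Relative to that median the difference was -0.29.

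Erbb2, the receptor without a ligand, was the most abundant receptor of the untreated cells. Its FPKM was 11.7, 11.5 and 13.5 in Unt, 4.99, 4.35 and 3.67 in DOX, 5.61, 3.63 and 4.24 in D_DXZ and 5.56, 6.79 and 13.0 in D_MgHCF. All libraries of DOX and D_DXZ lay below all of Unt, and replicate 3 of D_MgHCF reached the Unt range while the other two did not. The mean of DOX was 2.82-fold lower than that of Unt (log2 fold change -1.32 ± 0.25, adjusted p = 0.0016), and that of D_DXZ was 2.73-fold lower (-1.28, adjusted p = 0.00245). Against DOX, Erbb2 rose in D_MgHCF by 0.75 ± 0.25 on the log2 scale (1.95-fold between means, adjusted p = 0.0286). The rise was smaller without replicate 3 of D_MgHCF (0.43, adjusted p = 0.0475), and the call was lost without replicate 2 or 3 of DOX (adjusted p = 0.064 and 0.0927), with no filter on low values, with only these groups in the fit and with quantile normalization (adjusted p = 0.081, 0.103 and 0.134). Against D_DXZ, where the groups overlapped in their range, the difference of 0.72 (adjusted p = 0.0367) also lost its call without replicate 3 of D_MgHCF (0.40, adjusted p = 0.0665), without replicate 2 or 3 of D_DXZ (adjusted p = 0.116 and 0.0892), and at adjusted p of 0.0502 to 0.0504 without replicate 1 or 2 of Unt or replicate 2 of DOX, and with the 3 settings just named (adjusted p = 0.1 to 0.131). Against Unt, Erbb2 in D_MgHCF differed by -0.56 (adjusted p = 0.0994), and without replicate 3 by -0.89 (adjusted p = 0.00145). Mien1, which overlaps Erbb2 on the opposite strand, had a mean FPKM of 8.31 in Unt, 23.9 in DOX, 19.0 in D_DXZ and 11.7 in D_MgHCF, and since the counting is not stated to use strand, reads in the overlap cannot be told apart.

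Erbb3, the receptor of neuregulins that recruits phosphatidylinositol 3-kinase, was the receptor that set D_MgHCF apart from the other groups. Its FPKM was 1.72, 1.51 and 1.55 in Unt, 1.89, 0.738 and 0.460 in DOX, 0.628, 0.596 and 0.585 in D_DXZ and 8.61, 7.55 and 8.85 in D_MgHCF. The 3 D_MgHCF libraries lay within a narrow range far above the other 9, and replicate 3 did not stand apart here. The mean in D_MgHCF was 5.24-fold that of Unt (log2 fold change 1.85 ± 0.22, adjusted p = 0.000167), 8.09-fold that of DOX (2.26, adjusted p = 1.97e-05) and 13.8-fold that of D_DXZ (2.54, adjusted p = 1.52e-05). DOX overlapped with Unt through its replicate 1, with a log2 difference of -0.41 (adjusted p = 0.18), and without that library the difference was -0.70 (adjusted p = 0.00302). In D_DXZ, Erbb3 fell by 0.69 against Unt (adjusted p = 0.0303), a call that was lost without any single library of Unt or D_DXZ (adjusted p = 0.0617 to 0.09), with no filter on low values and with quantile normalization (adjusted p = 0.0638 and 0.123). Mir6917, which lies in Erbb3 on the same strand, was listed at 0 in all libraries.

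Erbb4, the other receptor of neuregulins and the one that adult heart muscle is known for, had 1 read in 1 library of D_MgHCF (FPKM 0.00385) and was listed at 0 in the other 11. The receptors that could be measured were Egfr, Erbb2 and Erbb3. Their summed FPKM lay between 14.9 and 17.0 for Unt, 5.58 and 8.28 for DOX, 5.78 and 7.87 for D_DXZ and 15.4 and 23.0 for D_MgHCF. Erbb3 made up 10.1% ± 1.01 (SD, n = 3) of this sum in Unt, 14.3% ± 7.65 in DOX, 9.17% ± 1.16 in D_DXZ and 47.5% ± 8.32 in D_MgHCF. The share of Erbb2 was 77.6% ± 1.82 in Unt, 65.1% ± 4.45 in DOX, 67.0% ± 4.26 in D_DXZ and 45.5% ± 10.7 in D_MgHCF. The receptor sum of D_MgHCF was in the range of Unt in replicates 1 and 2 and above it in replicate 3, with a larger part of Erbb3 and smaller parts of Erbb2 and Egfr, as shares of FPKM.

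**Figure D2:**
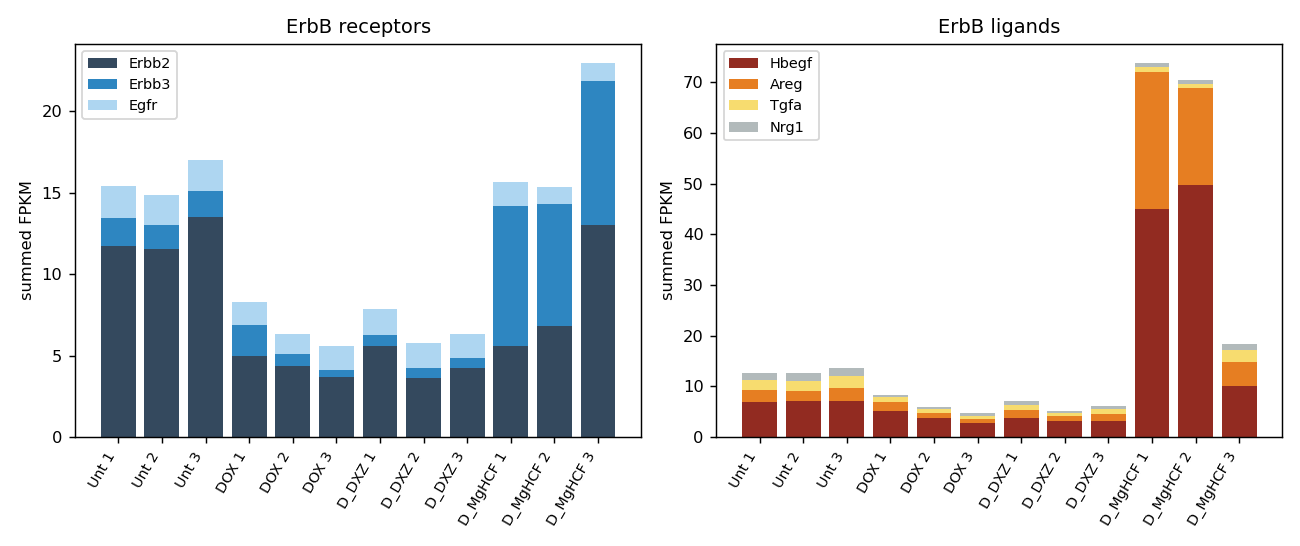
Summed FPKM of the receptors (left) and of the ligands Hbegf, Areg, Tgfa and Nrg1 (right), stacked by gene, in each of the 12 libraries. Receptor sums of 15.4 to 23.0 in D_MgHCF hold a large part of Erbb3, and ligand sums of D_MgHCF reach 73.8 in replicate 1 but 18.3 in replicate 3.

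Hbegf, a ligand of Egfr and Erbb4 that is stored at the cell surface, was the most abundant ligand in each group. Its FPKM was 6.83, 7.14 and 7.04 in Unt, 5.11, 3.78 and 2.77 in DOX, 3.81, 3.05 and 3.16 in D_DXZ and 45.1, 49.6 and 10.1 in D_MgHCF. Every D_MgHCF library was above every other library, but replicate 3 was far closer to Unt than replicates 1 and 2. The mean in D_MgHCF was 4.99-fold that of Unt (log2 fold change 1.89 ± 0.47, adjusted p = 0.0102), 8.99-fold that of DOX (2.63, adjusted p = 0.00094) and 10.5-fold that of D_DXZ (2.77, adjusted p = 0.000772). Without replicate 3 the log2 difference from DOX was 3.33, and the call against Unt was lost with only these groups in the fit (adjusted p = 0.066). All DOX and D_DXZ libraries lay below all Unt libraries, with log2 differences from Unt of -0.74 (adjusted p = 0.281) and -0.89 (adjusted p = 0.197), neither of which was called with the deposited FPKM of all 12 libraries in the fit. Without replicate 3 of D_MgHCF both were called (adjusted p = 0.00264 and 0.00103). Both were also called with only the 2 groups in the fit (adjusted p = 0.0238 and 0.00129). The same held under TPM (adjusted p = 0.00556 for both) and with FPKM over summed reads (adjusted p = 0.0262 and 0.0273).

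Areg, a ligand of Egfr with the promoter printed above, had the largest fold change of the members against DOX and against Unt in the FPKM as deposited. Its FPKM was 2.36, 1.89 and 2.53 in Unt, 1.84, 0.962 and 0.711 in DOX, 1.53, 1.00 and 1.42 in D_DXZ and 27.0, 19.1 and 4.63 in D_MgHCF. As for Hbegf, all D_MgHCF libraries were above the others and replicate 3 was the lowest of them. The mean in D_MgHCF was 7.50-fold that of Unt (log2 fold change 2.18 ± 0.48, adjusted p = 0.00553), 14.4-fold that of DOX (2.79, adjusted p = 0.000729) and 12.9-fold that of D_DXZ (2.67, adjusted p = 0.00112). Without replicate 3 the log2 difference from DOX was 3.49. DOX and D_DXZ libraries lay below all Unt libraries, at differences of -0.61 (adjusted p = 0.405) and -0.49 (adjusted p = 0.549), and DOX was called lower without replicate 3 of D_MgHCF (adjusted p = 0.0337). Under TPM both DOX and D_DXZ were called lower than Unt (adjusted p = 0.0214 and 0.0392). D_DXZ was also called lower with only the 2 groups in the fit (adjusted p = 0.0361).

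Ereg, the neighbour of Areg and a ligand of Egfr and Erbb4, had 2 reads in each of replicates 2 and 3 of D_MgHCF (FPKM 0.0190 and 0.0197) and was listed at 0 in the other 10 libraries. In those 10 libraries a count of 0 allows an FPKM of up to 0.0289 to 0.0628 (3 reads, counting error only), and no fold is given.

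Tgfa, a further ligand of Egfr, was lower under DOX. Its FPKM was 2.13, 2.04 and 2.36 in Unt, 0.893, 0.733 and 0.693 in DOX, 1.03, 0.752 and 0.911 in D_DXZ and 0.822, 0.926 and 2.46 in D_MgHCF. DOX and D_DXZ lay below all Unt libraries, and in D_MgHCF replicates 1 and 2 were in the range of DOX and D_DXZ while replicate 3 was above Unt. In DOX, Tgfa fell by 0.84 ± 0.22 on the log2 scale (2.82-fold between means, adjusted p = 0.0105) and in D_DXZ by 0.74 (adjusted p = 0.0228). Both calls were lost with quantile normalization (adjusted p = 0.168 and 0.224). The call in D_DXZ was lost without any single Unt library (adjusted p = 0.0517 to 0.0711) and without replicate 2 or 3 of D_DXZ (adjusted p = 0.0763 and 0.0583). Tgfa in D_MgHCF differed by 0.38 from DOX (adjusted p = 0.178, and by 0.081 with an adjusted p of 0.589 without replicate 3 of D_MgHCF) and by -0.47 from Unt (adjusted p = 0.116), and without replicate 3 by -0.76 from Unt (adjusted p = 0.000455).

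Nrg1, the neuregulin that binds Erbb3 and Erbb4, was the only ligand among the members that D_MgHCF held between DOX and Unt in all libraries. Its FPKM was 1.36, 1.59 and 1.70 in Unt, 0.420, 0.346 and 0.501 in DOX, 0.772, 0.354 and 0.535 in D_DXZ and 0.924, 0.797 and 1.06 in D_MgHCF. No library of D_MgHCF overlapped with another group. In DOX, Nrg1 fell by 0.84 ± 0.13 on the log2 scale (3.66-fold between means, adjusted p = 0.00034) and in D_DXZ by 0.72 (adjusted p = 0.00129). Against DOX, Nrg1 rose in D_MgHCF by 0.44 (2.20-fold between means, adjusted p = 0.0148), a call lost without replicate 2 of DOX (0.40, adjusted p = 0.0555) and with quantile normalization (0.072, adjusted p = 0.766). It remained 0.40 below Unt (adjusted p = 0.0288), a call lost without replicate 2 or 3 of Unt or replicate 1 or 2 of D_MgHCF (adjusted p = 0.0518 to 0.0885), with a pseudocount of 0.1 and with only these groups in the fit (adjusted p = 0.0982 and 0.099). The difference between D_MgHCF and D_DXZ of 0.32 was not called (95% confidence interval 0.04 to 0.60, adjusted p = 0.0602), and without replicate 1 of D_DXZ it was (adjusted p = 0.0261). Gm26578 overlaps Nrg1 on the opposite strand and shares 482 bases with it at 100% identity, and its mean FPKM was 0.103 in Unt, 0.244 in DOX, 0.201 in D_DXZ and 0.916 in D_MgHCF, so that the Nrg1 level is uncertain where reads of the overlap were counted for either gene.

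The ligands together had a summed FPKM between 12.7 and 13.6 for Unt, 4.67 and 8.26 for DOX, 5.17 and 7.14 for D_DXZ and 18.3 and 73.8 for D_MgHCF. Hbegf and Areg made up 62.2% ± 7.63 and 29.7% ± 6.06 (SD, n = 3) of the sum in D_MgHCF, compared with 54.0% ± 2.37 and 17.3% ± 2.10 in Unt. Nrg1 made up 11.9% ± 1.02 in Unt and 2.73% ± 2.67 in D_MgHCF. The lowest of the D_MgHCF sums was that of replicate 3, and it was still above all sums of the other groups.

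Errfi1, the feedback inhibitor of the receptor kinases, had the largest fall of the members in DOX. Its FPKM was 8.03, 7.71 and 7.99 in Unt, 1.88, 1.74 and 1.35 in DOX, 3.25, 2.15 and 1.34 in D_DXZ and 5.30, 5.83 and 6.44 in D_MgHCF. The groups Unt, D_MgHCF and DOX were separate from each other, in this order, and D_DXZ overlapped with DOX. In DOX, Errfi1 fell by 1.75 ± 0.19 on the log2 scale (4.78-fold between means, adjusted p = 4.42e-05) and in D_DXZ by 1.5 (adjusted p = 0.000212). Against DOX, Errfi1 rose in D_MgHCF by 1.37 ± 0.19 (3.54-fold between means, adjusted p = 0.000177), and against D_DXZ by 1.12 (adjusted p = 0.000778). The difference between D_MgHCF and Unt was -0.38 (95% confidence interval -0.80 to 0.04, adjusted p = 0.135). Errfi1 was thus higher in D_MgHCF than in DOX together with Erbb3, Hbegf and Areg, but unlike these it was not above Unt in any library of D_MgHCF.

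DXZ and MgHCF NCs were both given with DOX, and their groups differ for 5 of the 8 members (above). Between D_DXZ and DOX, the log2 differences ranged from -0.28 for Erbb3 (95% confidence interval -0.76 to 0.20) to 0.25 for Errfi1 (-0.17 to 0.67). The intervals were widest for Hbegf (-1.19 to 0.90) and Areg (-0.95 to 1.19), so that a change of less than about this size could not be seen in these 2 genes, and adjusted p-values were 0.735 to 1. A p that misses the threshold does not show that the groups are alike.

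**Figure D3:**
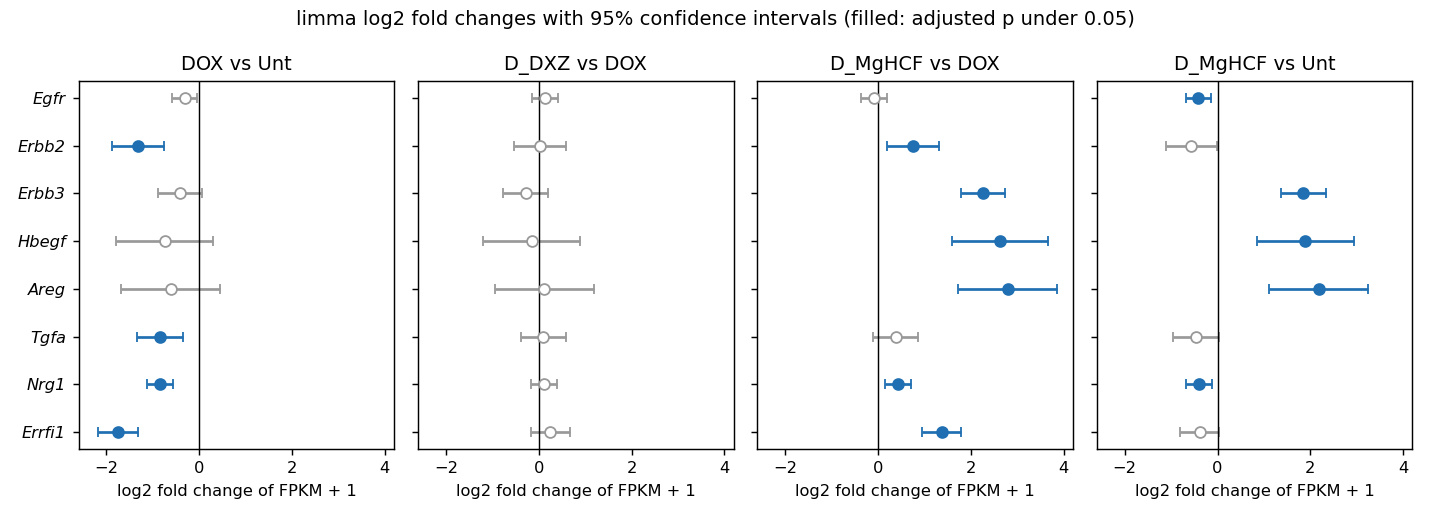
Log2 fold changes of FPKM + 1 (points) with 95% confidence intervals (bars) from limma for the 8 members tested, in 4 of the 6 comparisons, with filled points at an adjusted p under 0.05. All 8 points lie below 0 in DOX against Unt, all intervals include 0 in D_DXZ against DOX, and Erbb3, Hbegf and Areg lie to the right in D_MgHCF against both DOX and Unt.

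The order of the levels differed between groups. In Unt it was Erbb2 (12.3 ± 1.11), Errfi1 (7.91 ± 0.17), Hbegf (7.0 ± 0.16), Areg (2.26 ± 0.33), Tgfa (2.18 ± 0.17), Egfr (1.92 ± 0.07), Erbb3 (1.59 ± 0.11) and Nrg1 (1.55 ± 0.17) as mean FPKM ± SD (n = 3), and of these neighbours only Areg and Tgfa, and Erbb3 and Nrg1, overlapped in their libraries. In DOX, Erbb2 (4.34 ± 0.66) and Hbegf (3.88 ± 1.17) were first and overlapped, and Tgfa (0.773 ± 0.11) and Nrg1 (0.422 ± 0.08) were last and did not. In D_DXZ the order began with Erbb2 (4.49 ± 1.01), Hbegf (3.34 ± 0.41) and Errfi1 (2.25 ± 0.96), each of which overlapped with the next. In D_MgHCF, Hbegf (34.9 ± 21.6) and Areg (16.9 ± 11.4) came first, followed by Erbb2 (8.46 ± 4.01) and Erbb3 (8.34 ± 0.69), and each of the first 3 overlapped with the next. Below them, and separate from Erbb3, were Errfi1 (5.86 ± 0.57), Tgfa (1.40 ± 0.92), Egfr (1.21 ± 0.26) and Nrg1 (0.928 ± 0.13). Ereg was last in all groups.

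The other genes of the pathway were counted in 4 lists, to be read beside the shares of all genes tested that were called higher and lower (18.6% and 19.9% in DOX against Unt, 31.4% and 20.1% in D_MgHCF against DOX). Of 7 other receptors and ligands, 5 were detected in enough libraries to be tested, and Erbb4 and Nrg3 were not. In DOX against Unt 1 of the 5 rose and 2 fell, with a median log2 fold change of -0.04. Nrg2, a neuregulin, fell by 0.61 (mean FPKM 1.19 in Unt and 0.434 in DOX, adjusted p = 0.00675) and Egf, the founding ligand of the family, fell by 0.18 (0.188 and 0.0492, adjusted p = 0.000198). Epgn, a ligand of Egfr, was called higher by 0.12 from 1 to 2 reads per library in Unt and 2 to 5 in DOX. Btc, a ligand of Egfr and Erbb4, had a mean of 0.632 in Unt and 0.598 in DOX (adjusted p = 0.919), and Nrg4 had 0.0826 and 0.0744 (adjusted p = 0.908). In D_MgHCF against DOX, Nrg2 rose by 0.86 (mean 1.64, adjusted p = 0.000744) and Btc by 0.51 (mean 1.28, adjusted p = 0.0098), while Epgn fell by 0.11 (adjusted p = 0.0239, lost without replicate 1 or 3 of D_MgHCF at 0.0663 and 0.0571) and Egf and Nrg4 were not called (adjusted p = 0.862 and 0.703).

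The ligand release list held 11 genes, all tested. They are proteases, their partners and an inhibitor of such proteases, so that the counts mix genes that act in opposite directions. In DOX against Unt 6 of the 11 rose and 0 fell (36.7% of genes with a mean FPKM of at least 1 rose and 33.3% fell), with a median of 0.43, although with FPKM rescaled to TPM the split was 2 higher and 5 lower. Adam9, a membrane protease, had the largest rise, from a mean FPKM of 36.2 to 158 (log2 fold change 2.09 ± 0.29, adjusted p = 0.000214), and it remained called higher under TPM (0.74, adjusted p = 0.0141). Adam17, the main shedding protease of several Egfr ligands, rose from 11.4 to 30.6 (1.34, adjusted p = 0.000584), but under TPM the difference was 0.05 (adjusted p = 0.9). In D_MgHCF against DOX 4 of the 11 rose and 5 fell, near the shares of genes at such a mean (33.5% higher and 40.1% lower), with a median of 0.01 and 5 higher and 4 lower under TPM. Adam9 fell by 2.09 to a mean of 39.0 (adjusted p = 0.000193) and Adam17 by 1.81 to 8.33 (adjusted p = 7.61e-05), and both were also called lower under TPM (adjusted p = 0.00451 and 0.00187). Rhbdf2, which guides Adam17 to the cell surface, rose by 1.66 (mean 2.60 in DOX, and 5.40, 8.57 and 20.5 in the D_MgHCF libraries from the lowest to the highest, adjusted p = 0.00489), and by 1.17 without replicate 3 of D_MgHCF (adjusted p = 0.00431). Adam17 was named here after its values were seen.

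Of 13 adaptors and first kinases, which carry the signal from the receptors, 3 rose and 9 fell in DOX (median -1.28), and 11 rose and 2 fell in D_MgHCF against DOX (median 1.08). Of all genes with a mean FPKM of at least 1, 36.7% rose and 33.3% fell in DOX, and 33.5% rose and 40.1% fell in D_MgHCF against DOX. Sos1, the exchange factor that activates Ras, fell by 1.97 in DOX (mean FPKM 10.8 in Unt and 2.11 in DOX, adjusted p = 0.000135) and rose by 1.73 in D_MgHCF (mean 9.14, adjusted p = 0.000278). Plcg1, a phospholipase that binds active receptors, rose by 0.73 in DOX (adjusted p = 0.000589, but -0.56 under TPM), and Ptpn11, a phosphatase that promotes Ras signals, fell by 0.95 in D_MgHCF against DOX (adjusted p = 0.00103, but 0.24 under TPM with an adjusted p of 0.352).

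Of the receptor turnover and inhibitor list, 13 of 14 genes could be used, since Hgs was not matched to a single entry. In DOX 2 rose and 10 fell (median -0.97), and in D_MgHCF against DOX 7 rose and 3 fell (median 0.80). Among genes with a mean FPKM of at least 1, 36.7% rose and 33.3% fell in DOX. In D_MgHCF against DOX, 33.5% of such genes rose and 40.1% fell. Lrig1, a membrane protein that promotes the breakdown of ErbB receptors, fell by 1.89 in DOX (mean 23.3 in Unt and 5.61 in DOX, adjusted p = 1.48e-05). Ptpn1, a phosphatase that acts on Egfr, rose by 1.42 in D_MgHCF (6.66 in DOX and 19.5 in D_MgHCF, adjusted p = 9.77e-05). Sh3kbp1, an adaptor of receptor uptake, went the other way, with a rise of 1.17 in DOX (10.1 and 24.1, adjusted p = 3.87e-05, but -0.11 under TPM) and in D_MgHCF it fell by 2.03 against DOX (mean 5.12, adjusted p = 2.95e-06). In D_DXZ against DOX limma called 0 genes of the 4 lists (0% of all genes tested). At an unadjusted p under 0.05 there were 8 of 42, beside 9.54% of all genes tested.

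**Figure D4:**
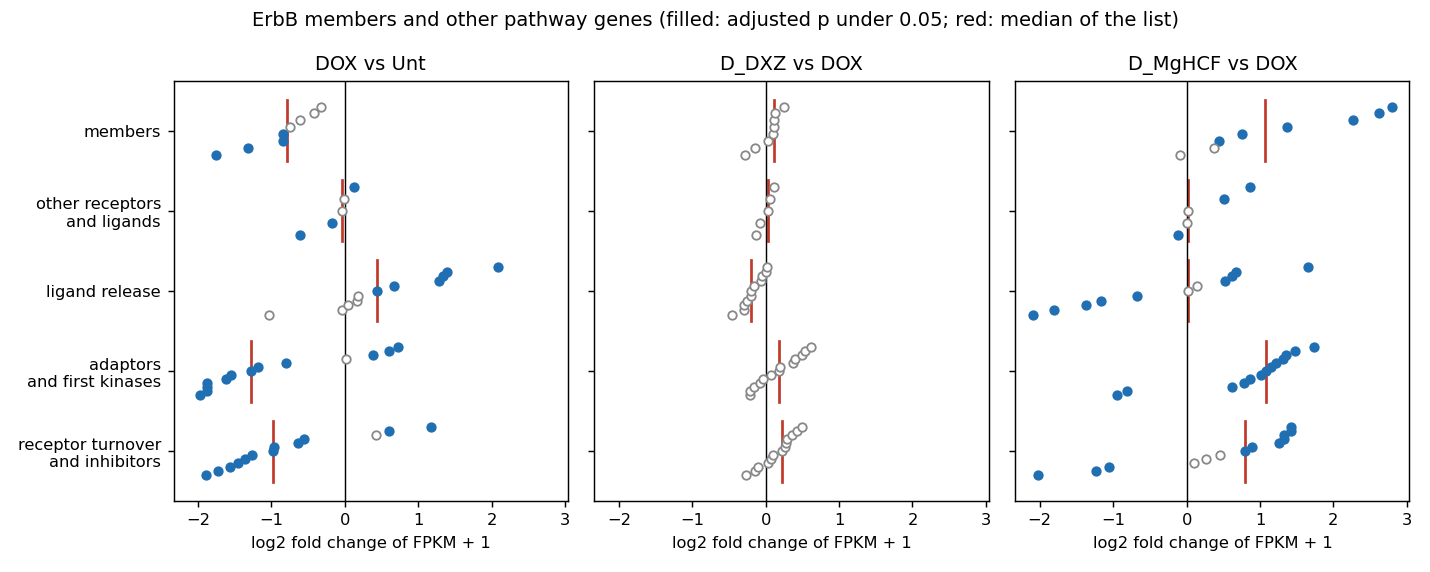
Log2 fold changes of FPKM + 1 of the 8 members tested and of the 4 other lists of the pathway (points, 1 per gene, filled at an adjusted p under 0.05), with the median of each list as a red line. Members, adaptors and turnover genes lie mostly below 0 in DOX against Unt and above 0 in D_MgHCF against DOX, ligand release genes lie mostly above 0 in DOX against Unt and on both sides of 0 in D_MgHCF against DOX, and no point is filled in D_DXZ against DOX.

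For each member the genes with the most similar pattern over the 12 libraries were taken from 13281 genes, by the root mean square difference of centred log2(FPKM + 1), as a description. The nearest to Erbb2 was Dhx8 (difference 0.0971, where the SD of Erbb2 over the libraries was 0.611), followed by Rxrb and Kif13b. Chst1 was nearest to Erbb3 (0.124, SD 1.01), with a mean FPKM of 1.87 in Unt, 1.48 in DOX, 0.618 in D_DXZ and 8.43 in D_MgHCF, followed by Frmd8 and Mafk. Hbegf was nearest to Usp17la (0.149, SD 1.22), Dnajb9 and Dusp5, a phosphatase of ERK. Areg was nearest to Rasl11b (0.217, SD 1.25), Usp17la and Fam84b, so that Usp17la was among the 3 nearest of both ligands. The nearest to Errfi1 were Plekha2 (0.111, SD 0.760), Fyn and Lrig1 (0.118), the last a member of the turnover list. Tgfa was nearest to Cit (0.0629, SD 0.393), Sbno2 and Spire1, Nrg1 to Washc1, Zfp407 and Nedd4l (0.0920 to 0.0945, SD 0.341), and Egfr, with the smallest SD (0.172), to Ppp4r1l-ps, Trim2 and Usf3 (0.0715 to 0.0825). The differences for Hbegf and Areg were the largest, as were the SDs of these 2 members, and all points share the same libraries and scaling.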

How the data were processed

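Poly(A) RNA of H9c2 cells (12 libraries, 4 groups of 3 after 6 h) was sequenced by the authors, and submitters' processing notes name HISAT2 2.0.5 and GRCm38 (mm10). The counting program and the strand setting are not given in the sources used here. The authors deposited FPKM of 54345 genes per library. FPKM times gene length was a whole multiple of 1 step per library (tolerance 0.05), so whole reads were recovered for 100% of values, and the deposited FPKM contain a median-ratio scaling. The study names the negative binomial distribution for its tests. Here the deposited unit, FPKM, was tested on a log scale, and the recovered reads entered 1 alternative (voom).

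Differences were tested with limma 3.58.1 (R 4.3.3, trend, no covariate, all 12 libraries in 1 fit, 6 comparisons) on log2(FPKM + 1), for the 25044 genes detected in 3 or more libraries, with Benjamini-Hochberg adjustment over all of them and calls at 0.05. The pseudocount of 1 makes log2 fold changes of low genes smaller. Fold values between means are ratios of mean FPKM. The scripts were tested on simulated data with the same spread in all groups and with changes placed in DOX only. Calls at the wider spread of D_MgHCF were therefore not tested in this way. GENCODE transcripts were searched with BLAST 2.17.0 for copies of the members (95% identity or more, 150 bases or more), and overlaps come from the deposited coordinates. All 9 members are named. Genes of the other lists are named as the largest rise and fall among those called, plus all detected other receptors and ligands, and for each member the 3 genes nearest in pattern. Members and lists were chosen with earlier results of these data known. Nrdc was matched by an older name.

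Each choice was varied alone: the pseudocount (0.1), the low-value filter (none, or FPKM of 1 or more), the p-value (unadjusted), the replicate number as a block, a fit restricted to the 2 groups of a comparison, TPM, FPKM over summed reads, quantile normalization, voom on the recovered reads, and each library left out.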

Additional observations from a re-analysis of the deposited data

How the results depend on the processing

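Over 48 member comparisons (8 members, 6 comparisons) and 22 alternatives, 954 of 1056 values kept direction and call, 44 lost the call, 42 gained one and 16 changed sign, of which 13 were not called either way. Erbb2, Nrg1 and Errfi1 in DOX and in D_DXZ against Unt, Erbb3 and Areg in D_MgHCF against Unt, and Erbb3, Hbegf, Areg and Errfi1 in D_MgHCF against DOX and against D_DXZ stayed called under all 22. Members called in DOX against Unt were 4, and 8 with TPM, 7 with FPKM over summed reads, and 4 to 7 with a library left out (7 without replicate 3 of D_MgHCF). With only the 2 groups in the fit, Egfr and Hbegf were also called in DOX against Unt (adjusted p = 0.0219 and 0.0238). The same fit added Hbegf and Areg in D_DXZ against Unt (adjusted p = 0.00129 and 0.0361). Quantile normalization lost Tgfa in DOX against Unt (adjusted p = 0.168). In D_DXZ against Unt the 5 became 8 with TPM, 3 with quantile normalization, and 3 to 6 with a library left out (3 without any of the Unt libraries or replicate 2 or 3 of D_DXZ). In D_MgHCF against Unt the 5 became 3 with only the 2 groups in the fit, and 3 to 7 with a library left out (3 without replicate 2 or 3 of Unt or replicate 2 of D_MgHCF, 7 without replicate 3 of D_MgHCF). In D_MgHCF against DOX the 6 became 8 with TPM and with FPKM over summed reads, 5 with quantile normalization (4 higher, and Egfr lower) and 4 to 6 with a library left out, in D_MgHCF against D_DXZ the 5 became 8 with TPM, 4 higher and 1 lower (Egfr) with quantile normalization, and 4 to 6 with a library left out, and in D_DXZ against DOX 0 remained (0 to 0). The cause was not tested.

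The scalings differ in where they centre the libraries: the median fold change (log2) among genes with a mean FPKM of at least 1 was 0.05 in DOX against Unt and -0.09 in D_MgHCF against DOX as deposited, -1.03 and 0.87 with TPM, and -0.69 and 0.67 with FPKM over summed reads. With TPM 1099 genes were called higher and 10034 lower in DOX (4649 and 4973 as deposited), and 13331 higher and 1679 lower in D_MgHCF against DOX (7863 and 5027). Relative to the shift under TPM, Errfi1 was at -1.77, Erbb2 at -1.47 and Egfr at -0.15 in DOX, and Areg was at 2.77, Hbegf at 2.80, Erbb3 at 2.20 and Nrg1 at 0.06 in D_MgHCF against DOX.

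Signs changed with quantile normalization for Egfr in DOX (0.042) and D_DXZ (0.087) against Unt, Erbb2 in D_DXZ against DOX (-0.015), Tgfa in D_MgHCF against DOX (-0.052) and D_DXZ (-0.095), and Nrg1 in D_MgHCF against D_DXZ (-0.017). With TPM and summed reads Egfr turned to 0.59 and 0.44 in D_MgHCF against DOX and to 0.38 and 0.23 against D_DXZ. In D_DXZ against DOX, the values with a library left out crossed 0 for Erbb2 (-0.11 to 0.15), Erbb3 (-0.48 to 0.0089), Hbegf (-0.32 to 0.029) and Areg (-0.035 to 0.33), and so did those of Tgfa in D_MgHCF against D_DXZ (-0.017, without replicate 3 of D_MgHCF, to 0.45).

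The replicate numbers do not mark shared cultures in the labels. Over 18 same-numbered pairs the deviations from the group means correlated at -0.314 to 0.306, 2 pairs were over 0.1, and 7 of 12 libraries correlated best with their own number. With a replicate block, 4 members were called in DOX, 5 in D_DXZ and 5 in D_MgHCF against Unt, 0 in D_DXZ and 6 in D_MgHCF against DOX, and the block lost the call of Erbb2 in D_MgHCF against D_DXZ (0.72, adjusted p = 0.0503), which left 4. Few reads limit the precision for Ereg, Erbb4, Epgn and Egf, and the spread of D_MgHCF limits Hbegf and Areg.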
